A study of Mus musculus with 8 samples.

Results

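The miR-130 and miR-301 family of the mouse was followed in the RNA-induced silencing complex (RISC) of the brain through its 4 mature members, mmu-miR-130a-3p, mmu-miR-130b-3p, mmu-miR-301a-3p and mmu-miR-301b-3p, written here without the prefix mmu. The members were chosen by name, and all reads that the table of RISC-bound small RNAs (R-sRNAs) assigns to one of these names were summed. They are 4 of 895 mature miRNA names and 96 of 47204 distinct sequences. All mice carried the 5XFAD transgenes of an amyloid model of Alzheimer's disease, driven in neurons by the Thy1 promoter, and differed in the autophagy gene Rubicon. The 5XFADtg/Rubicon het mice kept 1 intact copy and the 5XFADtg/Rubicon ko mice had none. Each group had 4 libraries, each from a different mouse, made from cortex and hippocampus combined. Per the methods the mice were females of a mixed C57BL/6J/SJL background, 6 or 8 months old. Another passage of the paper calls the compared mice age-matched at 6 months, and the labels give no age per mouse. The methods give 4 mice per group, while a figure legend of the paper describes triplicate samples for this comparison. Groups without the transgenes or with both Rubicon copies were not analysed here, and no comparison shows an effect of the transgenes.

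A miRNA guides an Argonaute protein to messenger RNAs that pair with its seed, bases 2 to 8 from its 5′ end, and the targets are repressed. miRNAs with the same seed form a family and can share targets. The genes of this family lie at several places in the genome. miR-130a is known from the growth of blood vessels, where it represses the homeobox genes Gax and HoxA5 in endothelial cells, and miR-130 represses Pparg, the main regulator of fat cell formation.

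The mature sequences are shown because the members can be told apart only by the bases after the seed. Of the 4 names, 3 were matched to RefSeq sequences (GRCm38.p6), printed 5′ to 3′ with the seed in capitals.
miR-130a-3p: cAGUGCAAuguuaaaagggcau
miR-130b-3p: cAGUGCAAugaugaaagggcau
miR-301a-3p: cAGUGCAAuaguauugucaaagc
miR-130a-3p and miR-130b-3p were identical at 20 of 22 bases, and the differences, counted from 1 at the 5′ end of miR-130a-3p, were U11A and A13G. miR-301a-3p and the most abundant miR-301b-3p read matched at 22 of 23 bases. Across the 2 branches the match was lower, with 12 of 22 bases shared by miR-130a-3p and miR-301a-3p. The hairpin of miR-130a lay at chr2:84741115-84741178 on the minus strand (GRCm38, GENCODE M21) and overlapped no other annotated gene. The hairpin of miR-301a lay at chr11:87113004-87113089 on the plus strand, in an intron of Ska2, a gene for a protein of the mitotic spindle and kinetochore. Those of miR-130b and miR-301b lay 257 bases apart on the minus strand of chromosome 16, at chr16:17124061-17124142 and chr16:17124400-17124496, both in an intron of 2610318N02Rik.

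The depth of the libraries bears on the members unequally. The table held between 509839 and 19878054 reads per library, and the reads of the whole family numbered between 835 and 18159. A level of 3 reads equalled 5.79 CPM (reads per 1000000 reads of the library) in het replicate 1, the shallowest library, and 0.151 CPM in ko replicate 2, the deepest, which gave 52.0% of all reads. Both libraries over 5000000 reads, ko replicates 1 and 2, were ko. The labelled tissue was borne out by the neuronal miRNAs miR-124-3p, miR-128-3p, miR-9-5p and miR-138-5p, which summed to between 150911 and 252535 CPM in every library. The list taken for epithelium was miR-200a-3p, miR-200b-3p, miR-429-3p, miR-96-5p, miR-182-5p and miR-183-5p. All 6 of 6 were called lower in ko by limma, and they are all of the 6 miRNAs called among 463 (1.3%). As the list was chosen with earlier results of these data known, this count is no independent finding. The summed level was 2229 to 7696 CPM in het against 187 to 783 CPM in ko. Whether it reflects epithelial cells was not tested. The mice are separate animals with a library each, so p-values measure the spread between libraries. Animals, preparation and counting are not separated in that spread.

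Within the RISC the family was carried almost wholly by 2 members. miR-301a-3p stood at 521.5 ± 182 CPM and miR-130a-3p at 512.8 ± 198 CPM (mean ± SD, n = 8 libraries), ranks 143 and 145 among the miRNAs. miR-130b-3p stood at 35.0 ± 12.6 CPM, rank 367, and miR-301b-3p at 15.9 ± 7.98 CPM, rank 438. The 4 members together gave 1085 ± 377 CPM, from 588 in ko replicate 1 to 1612 in het replicate 1. miR-301a-3p made up 48.1% ± 5.44 of the family, miR-130a-3p 47.0% ± 5.48, miR-130b-3p 3.34% ± 0.996 and miR-301b-3p 1.56% ± 0.784. The order of the levels was the same in all 8 libraries below the top, with miR-130b-3p always above miR-301b-3p and both always below the other two.

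miR-130a-3p measured 838, 622, 336 and 681 CPM in het replicates 1 to 4 and 266, 368, 411 and 581 CPM in ko replicates 1 to 4. miR-301a-3p measured 732, 639, 430 and 624 CPM in het and 281, 485, 273 and 708 CPM in ko. For both the groups overlapped. For miR-130a-3p only het replicate 3 fell within the range of ko, while for miR-301a-3p ko replicate 4 was also above 3 of the 4 het libraries. miR-130b-3p measured 34.8, 50.9, 13.6 and 37.2 CPM in het and 25.4, 35.9, 30.5 and 51.9 CPM in ko. miR-301b-3p measured 7.72, 26.8, 6.21 and 24.4 CPM in het and 15.4, 22.6, 9.02 and 14.7 CPM in ko. These 2 scarce members rest on few reads in the shallow libraries, with 18 reads of miR-130b-3p and 4 reads of miR-301b-3p in het replicate 1 against 715 and 450 in ko replicate 2. The plot of CPM by library shows both pairs of levels and the overlap of the groups.

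**Figure D1:**
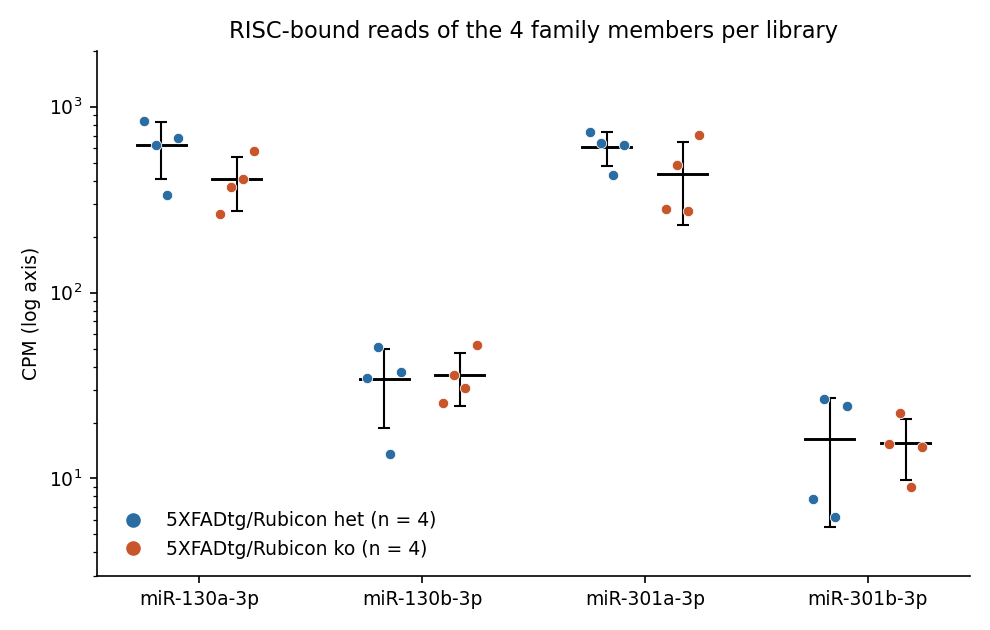
CPM of each family member in each library, on a log axis. Points are single libraries in the order of replicates 1 to 4, het in blue and ko in orange, horizontal lines are means and bars 1 SD (n = 4 per group). miR-130a-3p and miR-301a-3p lie between 266 and 838 CPM, miR-130b-3p and miR-301b-3p between 6.21 and 51.9 CPM, and het and ko points overlap for every member.

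Both members of a pair are read in the same library, so they were compared as the log2 ratio within each library, with 1 CPM added to both levels, which lowers the ratios to the scarce members. miR-130a-3p exceeded miR-130b-3p by a log2 ratio of 3.83 ± 0.51, a 14.2-fold difference as a geometric mean, and miR-301a-3p exceeded miR-301b-3p by 5.02 ± 0.81, a 32.5-fold difference. miR-130a-3p exceeded miR-301b-3p 31.8-fold, with a log2 ratio of 4.99 ± 0.87. The log2 ratio of miR-130b-3p to miR-301a-3p was -3.86 ± 0.56. miR-130b-3p exceeded miR-301b-3p, the partner at its own locus, by 1.16 ± 0.57, which is 2.23-fold. Each of these 5 differences had the same direction in 8 of 8 libraries, with an exact two-sided sign-flip permutation p of 0.0078, the smallest that 8 libraries allow, and 0.00938 after Benjamini-Hochberg adjustment over the 6 pairs. miR-130a-3p and miR-301a-3p were not separated beyond their spread, with a log2 ratio of -0.03 ± 0.33, miR-130a-3p being higher in 3 of 8 libraries (exact p = 0.789). When only the most abundant sequence of each member was counted, this ratio became 0.78 (exact sign-flip permutation, adjusted p = 0.0234). The most abundant sequence held 40.0% of miR-301a-3p reads and 68.3% of miR-130a-3p reads. Counted in this way the log2 ratio was 1.94 for miR-130b-3p over miR-301b-3p, 5.72 for miR-130a-3p over miR-301b-3p and -3.003 for miR-130b-3p over miR-301a-3p. That sequence of miR-301b-3p had 0 reads in het replicate 1, so both ratios to miR-301b-3p depend on the added 1 CPM there. With 10 CPM added in place of 1, the log2 ratio to miR-301b-3p was 4.34 for miR-301a-3p and 4.31 for miR-130a-3p. The 5 pairs passed the test under both settings.

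To compare the genotypes, limma was fitted to log2(CPM + 1) of the 463 miRNAs that averaged 10 CPM or more. None of the 4 members passed an adjusted p of 0.05 and none had an unadjusted p under 0.05, against 6 of 463 miRNAs (1.3%) called and 34 (7.34%) with an unadjusted p under 0.05. No member was called by edgeR or DESeq2 either, and the ko and het libraries did not separate for any member, against 16 of 463 miRNAs (3.46%) without overlap. miR-130a-3p averaged 619 ± 210 CPM in the het and 407 ± 131 CPM in the ko libraries, a log2 fold change of -0.59 (SE 0.33, 95% interval -1.29 to 0.12, limma adjusted p = 0.754). miR-301a-3p averaged 606 ± 127 CPM in the het and 437 ± 206 CPM in the ko libraries, a log2 fold change of -0.56 (SE 0.33, interval -1.27 to 0.15, limma adjusted p = 0.755). miR-130b-3p, with 34.1 ± 15.4 CPM in the het and 35.9 ± 11.5 CPM in the ko libraries, had a log2 fold change of 0.16 with an interval of -0.77 to 1.10. For miR-301b-3p, at 16.3 ± 10.8 and 15.4 ± 5.57 CPM, it was 0.11 with an interval of -1.09 to 1.31. The intervals leave room for a decrease of over 2-fold in miR-130a-3p and miR-301a-3p. They also allow an increase of over 2-fold in miR-130b-3p and a change of that size in either direction in miR-301b-3p. A difference was thus not detectable at this spread and is not shown to be absent.

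The median log2 fold change of the members was -0.22, beside -0.09 over all 463 miRNAs. Of the members 2 of 4 were below 0, beside 59.4% of all miRNAs. Centring each library on its median moved log2 fold changes by 0.22 on the median. The summed family differed by -0.53 on the log2 scale between ko and het, close to its SD of 0.48 between libraries of a genotype. The difference was -0.31 with each library centred on its median, -0.32 without the 2 deepest libraries, -0.36 without ko replicate 1 and -0.76 without ko replicate 4. Other measures moved with the 2 abundant members over the 8 libraries. miR-130a-3p had a Pearson r of -0.75 with the log10 of library reads and of 0.77 with the summed epithelial miRNAs, and miR-301a-3p had -0.54 and 0.63. With the erythrocyte miRNAs miR-451a and miR-144-3p, of which 0 of 2 were called, r was 0.50 for miR-130a-3p and 0.75 for miR-301a-3p. These were the lists with the highest r. For the other cell type lists r ran from -0.25 (choroid plexus) to 0.32 (endothelium) for miR-130a-3p. For miR-301a-3p it ran from -0.47 (choroid plexus) to 0.30 (endothelium). The epithelial sums of het and ko did not overlap, and the genotype means were not removed from these r. The part of depth or of the cells behind these lists in the levels was not tested. In bulk tissue fewer cells of a type and less RNA per cell cannot be told apart.

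The make-up of the family was compared between genotypes as percent of family CPM. miR-130b-3p made up 2.16%, 3.80%, 1.73% and 2.72% in het replicates 1 to 4 and 4.33%, 3.94%, 4.22% and 3.83% in ko. Every ko library lay above every het library, but het replicate 2 and ko replicate 4 were close, and their 95% Wilson intervals of 3.04% to 4.75% and 2.94% to 4.97% overlapped. The het mean was 2.60% ± 0.897 and the ko mean 4.08% ± 0.234 (n = 4 per genotype, two-sided exact permutation test, p = 0.0286, which is the lowest value this design can give). After adjustment over the 4 members p was 0.114, so the difference was not called. A member alone cannot reach a lower adjusted p in this design, so the test could not have called it. For the other 3 members the adjusted p of the exact permutation test was at least 0.686.

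miR-130a-3p and miR-301a-3p, from different chromosomes, varied together over the 8 libraries, with a Pearson r of 0.83 and a Spearman rho of 0.76 of log2(CPM + 1), or r of 0.77 with the genotype means removed. miR-130b-3p and miR-301b-3p, from 1 locus, had r of 0.66 in both forms and rho of 0.62. With the genotype means removed r rose from 0.61 to 0.84 for miR-130a-3p and miR-130b-3p, then the highest of the 6 pairs, and from 0.54 to 0.74 for miR-130b-3p and miR-301a-3p. miR-301a-3p and miR-301b-3p had r of 0.26, or 0.35 in that form. These values describe 8 libraries that share scaling to a fixed total, and counting error is large for miR-301b-3p. Among the 463 miRNAs tested, the 3 with a profile most like miR-130a-3p were miR-16-2-3p (r = 0.93), miR-29a-5p (0.92) and miR-503-5p (0.91), against a median r of 0.11 over the other 462. The 3 most like miR-301a-3p were miR-540-5p (0.90), miR-29a-5p (0.89) and miR-34b-5p (0.88). For miR-130b-3p they were miR-299a-5p (0.90), miR-296-3p (0.82) and miR-187-3p (0.79), and for miR-301b-3p miR-191-3p (0.80), miR-34a-3p (0.72) and miR-344c-3p (0.71). As a highest value among 462 is chosen, these r are a description.

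In the table each read carries its 6mer seed, bases 2 to 7, and a seed viability score. The score is the mean viability of 3 mouse cell lines given an siRNA with that seed, taken from an earlier screen, and low values mark toxic seeds. The seed AGUGCA of the family had a score of 88.4, higher than 96.8% of the 3427 seeds in the table. Reads with a score this high or higher made up 1.92% of CPM. The family seed ranked 82 among seeds, with 1118 ± 368 CPM, from 624 in ko replicate 1 to 1639 in het replicate 1. It was carried by 103 sequences from 14 sources. The 4 members supplied 94.7% ± 2.52 of it, between 91.0% and 97.3% by library.

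The remaining 51.4 ± 9.87 CPM came from 10 other sources. Some of it was from the family's own hairpins, as reads that the table assigns to a hairpin without a mature name gave 7.55 CPM for mir-130a and 0.57 CPM for mir-301a. More came from shortened reads of miRNAs with another seed. miR-139-5p supplied 21.2 CPM, which is above the 15.8 CPM that miR-301b-3p brought. The supply came from reads that start 4 bases later than the main miR-139-5p read. miR-148b-3p supplied 10.9 CPM through reads that start 1 base later. The sequences are shown because losing bases at the 5′ end turns another seed into that of the family, and capitals mark the 6mer seed of each read.
miR-139-5p, most abundant read: tCTACAGtgcacgtgtctccagt
miR-139-5p, read with the family seed: cAGTGCAcgtgtctccagt
miR-148b-3p, most abundant read: tCAGTGCatcacagaactttgt
miR-148b-3p, read with the family seed: cAGTGCAtcacagaactttgt
These reads were 0.301% of all miR-139-5p reads and 2.51% of all miR-148b-3p reads, so the seed came from a small part of more abundant miRNAs. miR-139-5p itself stood at 6849 ± 1197 CPM and miR-148b-3p at 420 ± 90.0 CPM. Base 8 of both shortened reads differs from that of the family, and 0% of these reads held the 7mer seed of bases 2 to 8. The viability score changed with the start, from 78.8 for the main miR-139-5p read and 69.7 for that of miR-148b-3p to 88.4. miR-148a-3p and miR-152-3p, which share the seed of miR-148b-3p, supplied 2.35 and 0.79 CPM. miR-130c and miR-721, whose RefSeq sequences hold the family seed, were not listed in the table, nor was miR-454-3p. miR-6341, which also holds it, supplied 1.13 CPM.

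**Figure D2:**
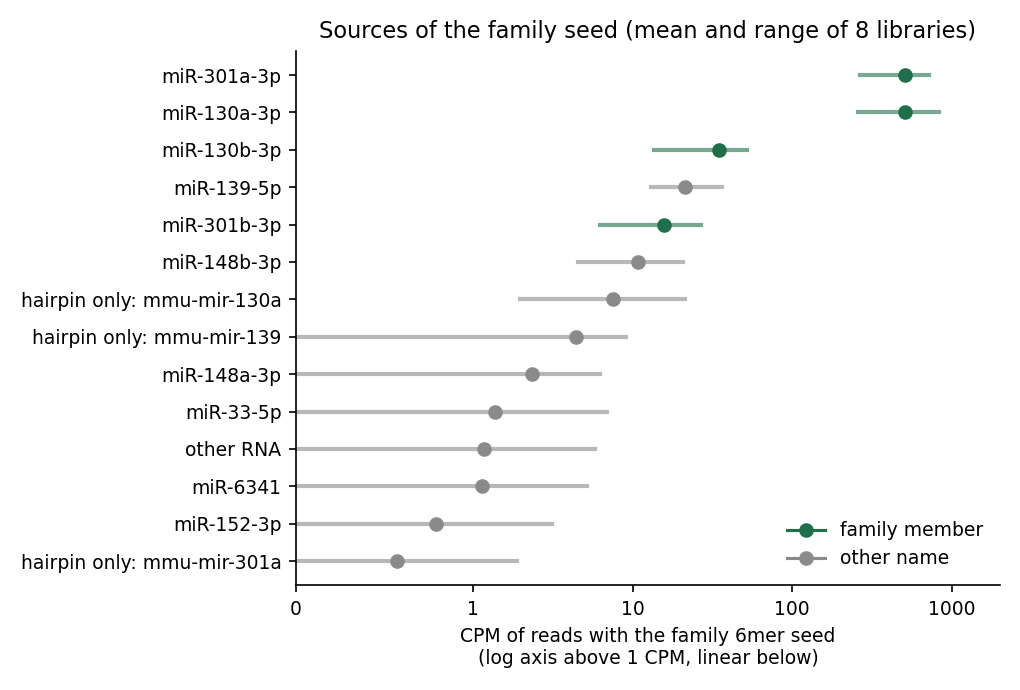
CPM of reads with the family's 6mer seed by the name the table gives them, as the mean (point) and range (line) of 8 libraries. The axis is logarithmic above 1 CPM and linear below, members are green and other names grey, and miR-139-5p (21.2 CPM) lies between miR-130b-3p (34.8 CPM) and miR-301b-3p (15.8 CPM).

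The start of the members was nearly fixed. The family seed was held by 98.5% ± 0.712 of miR-130a-3p reads, 97.7% ± 0.532 of miR-301a-3p reads, 99.4% of miR-130b-3p reads and 99.8% of miR-301b-3p reads. The 3′ end varied, and the read lengths differed between the 2 branches. For each abundant member 4 of its 5 most abundant reads are shown because they differ only there, with capitals for bases that the hairpin does not hold.
miR-130a-3p, 22 nt: cagtgcaatgttaaaagggcat
miR-130a-3p, 21 nt: cagtgcaatgttaaaagggca
miR-130a-3p, 23 nt: cagtgcaatgttaaaagggcatT
miR-130a-3p, 22 nt with another last base: cagtgcaatgttaaaagggcaC
miR-301a-3p, 23 nt: cagtgcaatagtattgtcaaagc
miR-301a-3p, 22 nt: cagtgcaatagtattgtcaaag
miR-301a-3p, 25 nt: cagtgcaatagtattgtcaaagcat
miR-301a-3p, 19 nt: cagtgcaatagtattgtca
The first read of each list was the most abundant. It made up 68.3% ± 9.09 of miR-130a-3p but 40.0% ± 11.3 of miR-301a-3p. For miR-130a-3p the 21 nt read followed with 7.80% and the 23 nt read with 6.81%. For miR-301a-3p the 22 nt read made up 22.1%, the 25 nt read 11.3% and the 19 nt read 8.74%. Reads that match the hairpin to their last base were 81.6% of miR-130a-3p, from 75.0% to 90.1% by library, and 95.2% of miR-301a-3p, from 93.1% to 97.5%. The rest were mostly reads with a 3′ tail that the hairpin does not hold, 18.1% ± 4.69 of miR-130a-3p against 4.29% ± 1.36 of miR-301a-3p. The lowest miR-130a-3p library, at 9.91%, lay above the highest miR-301a-3p library, at 6.89%. The scarce members did not separate in this way. Their tails were 13.4% of miR-130b-3p reads (2.86% to 26.4% by library) and 9.82% of miR-301b-3p reads (0% to 75.0%, the highest resting on 4 reads). Tails made of T alone were 8.32% of miR-130a-3p reads and tails of A alone 4.65%. A misread last base would be counted as a tail, and a tail that happens to match the hairpin would not, and neither was tested.

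In read length each scarce member was closer to its abundant partner than to the other branch. The share of reads that would have to change length to turn one mean profile into the other was 9.35% between miR-130a-3p and miR-130b-3p and 16.2% between miR-301a-3p and miR-301b-3p. Between members of different branches it was 56.5% to 70.5%. These shares describe mean profiles over 8 libraries, and those of miR-301b-3p rest on as few as 4 reads. Because miR-301a-3p and miR-301b-3p differ at 1 base, misread bases of the abundant one could be counted as the other. The most abundant miR-301b-3p read stood at 3.39% of the most abundant miR-301a-3p read. Of the 62 other single-base changes of that read outside its last 2 bases, 6 were in the table, the highest at 2.14%, and the median was 0. The part of misread bases in the level of miR-301b-3p was not tested.

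**Figure D3:**
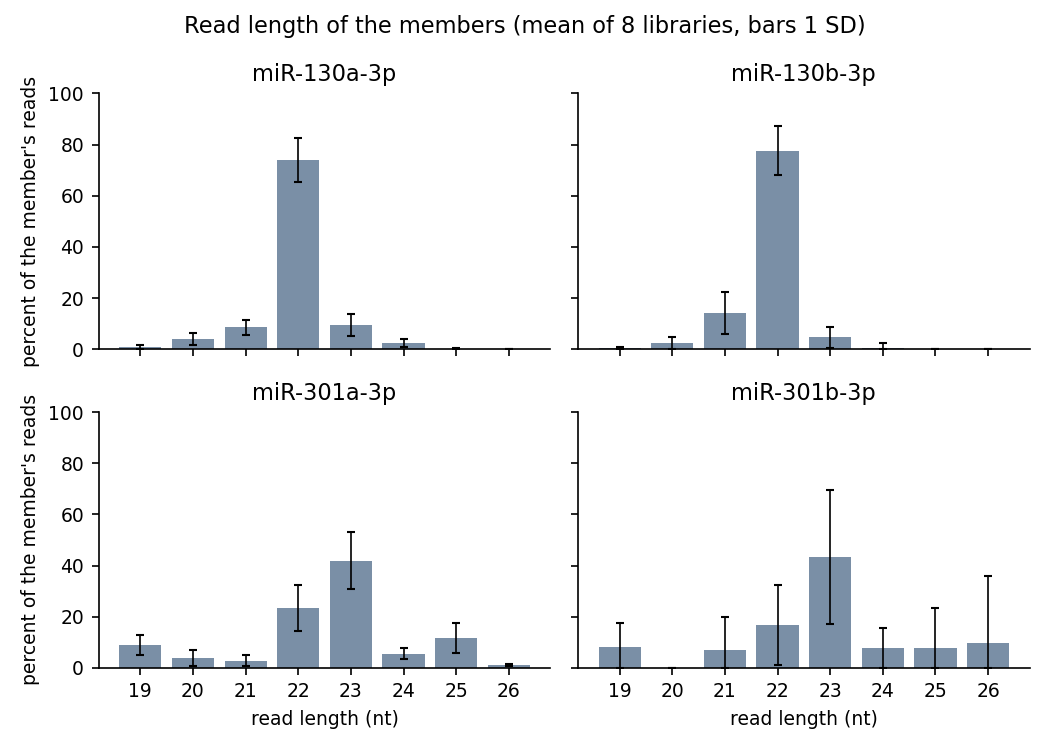
Percent of each member's reads at each length from 19 to 26 nt, as the mean of 8 libraries with bars of 1 SD, cut at 0. miR-130a-3p and miR-130b-3p peak at 22 nt, with 73.9% and 77.7% of reads, while miR-301a-3p and miR-301b-3p peak at 23 nt, with 42.0% and 43.2%, and spread over more lengths.

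Between the genotypes, 3 measures of read form were compared for miR-130a-3p and miR-301a-3p, which had at least 100 reads in every library, in 6 tests. None passed an adjusted p of 0.05, and 1 had an unadjusted p under 0.05. That was the mean read length of miR-301a-3p, which was 22.14, 22.34, 22.28 and 22.44 nt in het replicates 1 to 4 and 22.75, 22.65, 22.81 and 22.82 nt in ko. All ko libraries lay above all het libraries. The het mean was 22.30 ± 0.126 nt and the ko mean 22.76 ± 0.077 nt, a difference of 0.456 nt (n = 4 per genotype, two-sided exact permutation test, p = 0.0286, adjusted p = 0.171). A measure alone cannot reach a lower adjusted p over the 6 tests. Reads of 19 to 21 nt made up 24.8%, 13.3%, 23.6% and 16.1% in het and 12.4%, 10.9%, 7.86% and 16.3% in ko. Reads of 24 nt or more made up 14.5% to 15.7% in het and 15.2% to 30.7% in ko, the highest being ko replicate 4. That library differed in form from the other ko libraries, since the most abundant read was 25.9% of its miR-301a-3p reads against at least 50.5% in the other three, and 81.8% of its miR-130a-3p reads against at most 60.3%. Het libraries came close to both values, with 27.2% for miR-301a-3p in het replicate 2 and 80.6% for miR-130a-3p in het replicate 1, which with ko replicate 4 is one of the 2 shallowest libraries. Without ko replicate 4, 4 of the 6 measures had the smallest p that 4 against 3 libraries allow and passed (exact permutation, adjusted p = 0.0429).

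The same length comparison over all 220 miRNAs with at least 100 reads in every library, added after seeing the data, served as background. The ko and het libraries did not overlap in 5 of them (2.27%), 4 of these being longer in ko (1.82%), and none passed adjustment over the 220 (adjusted p of miR-301a-3p 0.918, by the exact permutation test). The difference of miR-301a-3p was the second in size, while the median difference was 0.0204 nt. The mean length of all miRNA reads lay between 21.68 and 21.79 nt in het and between 21.73 and 21.78 nt in ko.

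**Figure D4:**
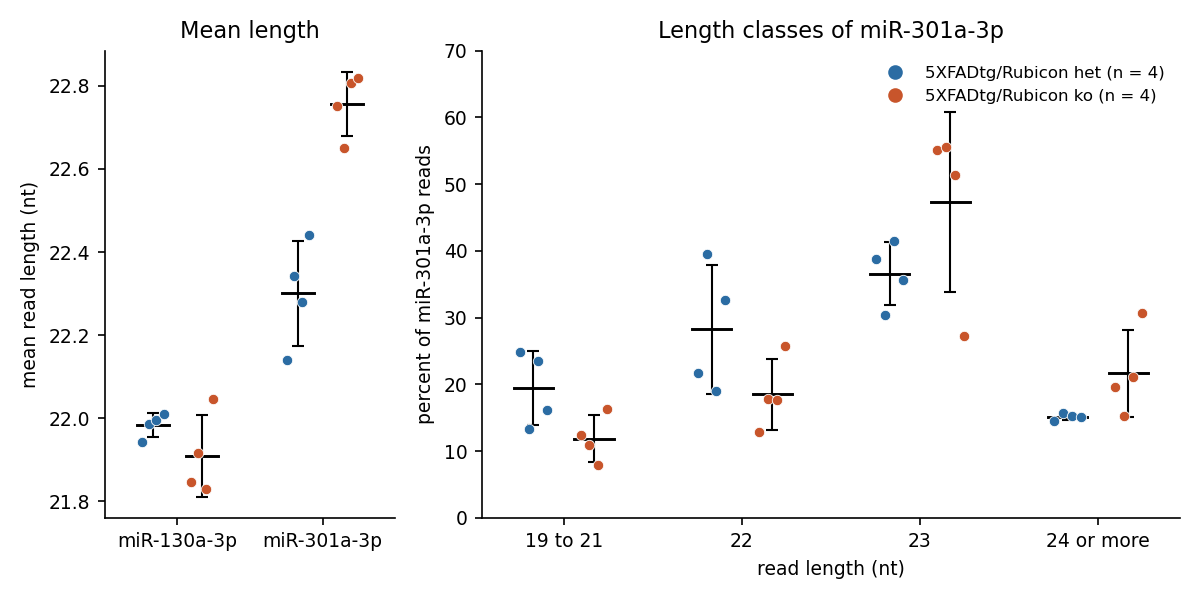
Left, mean read length in nt of miR-130a-3p and miR-301a-3p per library. Right, percent of miR-301a-3p reads in 4 length classes. Points are libraries in the order of replicates 1 to 4, het in blue and ko in orange, lines are means and bars 1 SD (n = 4). The miR-301a-3p mean is 22.14 to 22.44 nt in het and 22.65 to 22.82 nt in ko, and the class of 23 nt shows ko replicate 4, at 27.2%, apart from the other ko libraries.

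Each hairpin gives 2 strands, and the 5p arm of these hairpins is the one usually discarded. The 5p sequences are shown because they carry other seeds than the 3p members, with bases 2 to 8 in capitals (RefSeq, GRCm38.p6).
miR-130a-5p: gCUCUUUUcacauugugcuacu
miR-130b-5p: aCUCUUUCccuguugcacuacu
miR-301a-5p: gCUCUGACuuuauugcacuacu
The arms were loaded very unequally for 2 hairpins and more evenly for the third. The 5p arm made up 0.435% ± 0.253 of both arms for miR-130a and 0.598% ± 0.517 for miR-301a, but 40.4% ± 13.7 for miR-130b, from 13.1% to 59.8% by library. miR-130b-5p measured 25.1, 35.8, 20.2 and 27.8 CPM in het replicates 1 to 4 and 19.8, 16.2, 29.6 and 7.84 CPM in ko, on average 22.8 ± 8.68 CPM. The groups overlapped, with -0.65 as the log2 fold change (SE 0.44, adjusted p = 0.816 by limma). miR-130a-5p stood at 2.04 ± 0.987 CPM and miR-301a-5p at 3.09 ± 3.58 CPM, both under the level for testing, and miR-301b-5p was not listed.

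For miR-301a the log2 of 3p over 5p, with 1 CPM added to each arm, had a het mean of 8.38 ± 1.28 and a ko mean of 6.37 ± 0.34, a difference of -2.01 (n = 4 per genotype, two-sided exact permutation test, p = 0.0286, adjusted over the 3 hairpins 0.0857). The value rests on few reads, as miR-301a-5p had 0, 7, 2 and 0 reads in het and 20, 81, 4 and 11 in ko. All ko libraries lay below all het libraries on this scale, but not without the added 1 CPM, since het replicate 2 with 929 reads of 3p to 7 of 5p then had a lower ratio than ko replicate 3 with 636 to 4. The difference was -3.64 with 0.1 CPM added (exact permutation, adjusted p = 0.171) and -0.91 with 10 CPM added (adjusted p = 0.0857). The 0 reads of het replicates 1 and 4 allow up to 5.79 and 1.13 CPM. The difference was -0.77 for miR-130a (exact permutation, adjusted p = 0.171) and 0.81 for miR-130b (adjusted p = 0.286), the latter being 0.29 without ko replicate 4. No hairpin was called, and a hairpin alone cannot reach an adjusted p below 0.0857 in this exact permutation test.

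**Figure D5:**
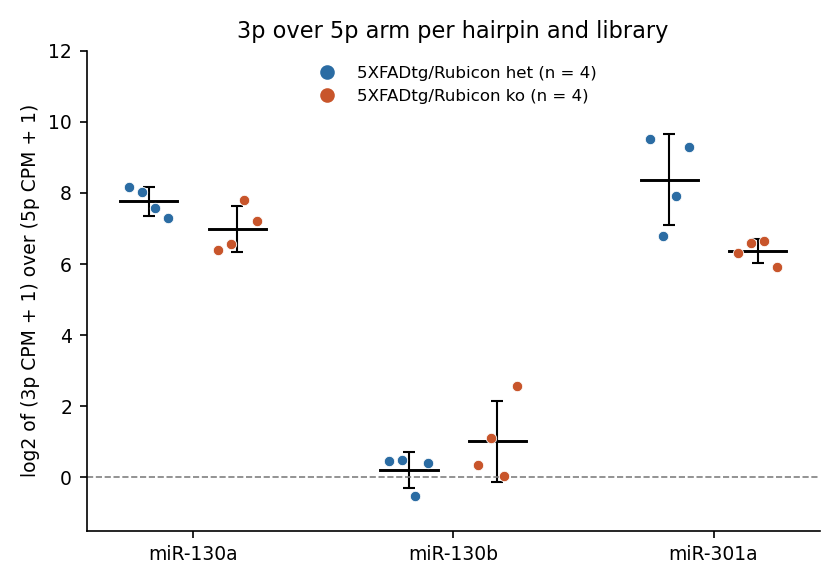
Log2 of (3p CPM + 1) over (5p CPM + 1) for the 3 hairpins with both arms in the table, per library, with het in blue, ko in orange, lines for means and bars of 1 SD (n = 4). The dashed line marks equal arms, and miR-130b lies near it, from -0.54 to 2.58, while miR-130a and miR-301a lie between 5.91 and 9.52.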

How the data were processed

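RISC-bound RNA of 8 mouse brains was captured with a GW182 peptide, gel selected and sequenced. The deposited table, made by the authors with their SPOROS pipeline, holds a line per sequence with its small RNA name and its CPM, scaled by the authors to reads per 1000000 library reads. Column sums were 98.4% to 99.8% of that total, and every sequence had at least 8 reads in all, so rare isoforms were lost more easily from shallow libraries. Viability is a deposited score from another screen. For this table the build and pipeline versions were not given in the sources used here. The authors' CPM values were whole multiples of 1 read (100% within 0.05), which gave counts of reads.

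CPM was summed per name. limma 3.58.1 (trend, robust, R 4.3.3) was run on log2(CPM + 1) without covariates, with edgeR 4.0.16 and DESeq2 1.42.0 on recovered counts as alternatives, and Benjamini-Hochberg adjustment. The fits were tested on simulated data. Ratios, shares, isoforms and arms were compared by exact permutation tests in Python 3.11.15 (numpy 2.4.6, pandas 2.3.3, matplotlib 3.10.9). Hairpins came from GENCODE M21 and mature sequences from RefSeq. Wilson intervals and floors (3 reads) cover counting error only, without molecular identifiers. The intervals of log2 fold changes came from limma and rest on the spread between libraries. Groups came from sample titles. The members, lists and rules were chosen with earlier results of these data known. Names beyond the members were the other arms, miRNAs with the same or a shifted seed, any name with at least 1% of the family seed, and the 3 most like profiles per member. miR-6341 was named after its values were seen. Alternatives were other pseudocounts (0.1, 10) and CPM minima (1, 100), centring, a replicate block, read minima, single sequences, and leaving out libraries.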

Additional observations from a re-analysis of the deposited data

Results flagged for a closer look

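In 38 groups of 4 libraries (a measure of the family in a genotype), 3 had a library whose gap to its nearest neighbour, divided by the range of the group, was above Dixon's 95% critical value, and chance gives about 1.9 at 1 in 20. The ko replicate 4 library accounted for 2 of them, with 81.8% of miR-130a-3p reads in the most abundant sequence against a nearest value of 60.3%, and 25.9% of miR-301a-3p reads against a nearest value of 50.5%. The third was miR-301a-5p in het replicate 2, at 4.82 CPM against 0.777, which rests on 7 reads.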

How the results depend on the processing

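No member was called between genotypes under any of 17 alternatives, and miR-130a-3p and miR-301a-3p kept a log2 fold change below 0 (-0.85 to -0.27 and -0.83 to -0.30). The small changes of the scarce members turned. miR-130b-3p fell to -0.21 without het replicate 3 and -0.03 without ko replicate 4, within a range over left-out libraries of -0.21 to 0.40. miR-301b-3p gave -0.21 without the 2 deepest libraries and -0.22 to 0.43 when 1 library was left out, being below 0 without het replicate 1, het replicate 3 or ko replicate 2. The mean of at least 100 CPM left both out. The log2 ratio of miR-130a-3p to miR-301a-3p was 0.78 with only the most abundant sequences, 0.0378 without the 2 deepest libraries and -0.119 to 0.0214 with 1 library left out. Shares of the family (ko minus het, percentage points) turned for miR-301a-3p to 7.08 with only the most abundant sequences, where that of miR-130a-3p moved from -1.43 to -9.69. The miR-301a-3p share ranged from -2.46 to 2.69 with 1 library left out. For miR-130a-3p the share turned to 2.06 and for miR-301b-3p to -0.0995 without the 2 deepest libraries, and that of miR-130a-3p ranged from -4.91 to 0.546 with 1 library left out. The percent of miR-130a-3p reads with the family seed ranged from -0.168 to 0.411 in the same way. The number of isoform measures called was 0 to 4, and 4 only without ko replicate 4. The cause of these turns was not tested. A minimum of 1000 reads left no isoform test. No arm ratio was called under 11 alternatives, although that of miR-301a (ko minus het) moved between -3.64 and -0.91 with the pseudocount. A hairpin alone cannot pass at the lowest p these exact tests allow, so that count says nothing of stability.

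The labels do not say that replicate numbers pair the mice. The correlation of deviations between same-numbered libraries was 0.04, 0.29, -0.18 and 0.25. Between libraries of different number it ran from -0.50 to 0.41, and these values do not settle whether there was pairing. With the replicate block the members called stayed at 0, and exact tests over 4 pairs cannot go below 0.125, so the block says nothing of them.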
